A study of Homo sapiens with 12 samples.

Results

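The RNA levels described here are those of 10 genes of the cytosolic heat shock response, chosen by symbol: HSF1, HSPB1, HSPA1A, HSPA1B, HSPA8, HSP90AA1, HSP90AB1, DNAJB1, HSPH1 and BAG3. They are 10 of the 60663 genes in the count table, and all 10 were among the 20714 genes that passed the filter on low counts. RNA of the clear cell renal carcinoma line RCC4 was measured by sequencing of total RNA depleted of ribosomal RNA. VHL-negative RCC4 cells, with loss of VHL, and VHL-positive RCC4 cells, the same line with VHL put back, were each treated with DMSO, the solvent, or with JQ1 at 5 µM, an inhibitor of BET bromodomain proteins, given in the labels as an inhibitor of MYC. Each of the 4 groups had 3 libraries, and both lines were grown in geneticin. The VHL construct, the duration of treatment and whether the replicates were separate cultures are not given in the labels, so the p-values measure only the spread between these libraries, which may be technical. A library here is named by line, treatment and replicate number.

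Heat shock proteins are chaperones that keep other proteins folded, and many of their genes are switched on by the transcription factor HSF1 when unfolded proteins accumulate. HSP70 proteins bind unfolded chains in a cycle that J proteins start and nucleotide exchange factors end, and HSP90 proteins take over clients such as kinases and steroid receptors. HSF1 binds heat shock elements, which are inverted repeats of the short unit GAA.

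Total counts ran from 15452949 to 32502310 per library, and the 10 genes together took 0.399 to 0.617% of them. Mitochondrial and structural RNA genes took 11.72 to 25.76% of counts, and the highest share was that of VHL-negative DMSO replicate 1, against 14.51% and 11.72% in replicates 2 and 3 of that group. Each of the 9 renal and clear cell carcinoma markers exceeded 1 CPM in at least 1 library, with a summed level of 2287 to 2916 CPM. Single markers varied widely between libraries, CA9 from 0 to 97.8 CPM and CDH16 from 2.99 to 173 CPM. Of 5 leukocyte and 4 endothelial markers, 1 each exceeded 1 CPM in any library, and these were CSF1R at up to 4.36 CPM and ESAM at up to 9.89 CPM. VHL, the gene that sets the lines apart, measured 70.3 ± 7.62 CPM (SD, n = 3) in VHL-positive and 26.4 ± 1.64 CPM in VHL-negative cells under DMSO, and 212 ± 14 and 32.7 ± 2.39 CPM under JQ1. MYC, the stated target, measured 171 ± 48 and 161 ± 18.9 CPM in VHL-positive cells without and with JQ1, and 342 ± 84.4 and 160 ± 28.9 CPM in VHL-negative cells. CPM is the count scaled to library size, with library sizes adjusted by the trimmed mean of M values (TMM). Bulk RNA cannot tell fewer cells that express a gene from less RNA per cell.

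The stretch of 250 bases before the annotated start was searched for heat shock elements, because it shows which of these genes carry HSF1's letters next to the start. RefSeq (GRCh38.p14) gave such a stretch for 9 of the 10 genes, in 14 entries because some genes have several starts. A 2-unit element, GAANNTTC or TTCNNGAA, occurred at 7 of the 9 genes, the exceptions being BAG3 and HSPH1. It occurred in 50% of the 14 entries, against 11.6% of all 35116 entries in the table. A 3-unit element, which is a 2-unit element followed by NN and a further GAA or TTC in alternation, so that it contains 2-unit elements, occurred at HSP90AA1, HSP90AB1 and HSPA8, in 21.4% of the entries against 0.441% of all. The sequence CACGTG, the E-box read by MYC, was found in 0 of the 14 entries and in 6.34% of all. Each motif was searched on both strands, and a match describes letters only. The 6 stretches below belong to the pairs of related genes and to the genes whose levels differed. They run 5′ to 3′ on the gene's strand, with heat shock element letters in capitals. They lie at chr14:102087045-102087294 (HSP90AA1, minus strand), chr6:44247693-44247942 (HSP90AB1, plus), chr6:31815293-31815542 (HSPA1A, plus), chr6:31827488-31827737 (HSPA1B, plus), chr7:76302423-76302672 (HSPB1, plus) and chr13:31162389-31162638 (HSPH1, minus).
HSP90AA1: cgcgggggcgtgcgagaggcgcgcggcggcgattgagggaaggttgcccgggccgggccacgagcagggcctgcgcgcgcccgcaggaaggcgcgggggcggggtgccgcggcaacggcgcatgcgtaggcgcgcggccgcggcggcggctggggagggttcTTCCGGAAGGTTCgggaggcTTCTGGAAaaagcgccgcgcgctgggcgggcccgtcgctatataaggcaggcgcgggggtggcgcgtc
HSP90AB1: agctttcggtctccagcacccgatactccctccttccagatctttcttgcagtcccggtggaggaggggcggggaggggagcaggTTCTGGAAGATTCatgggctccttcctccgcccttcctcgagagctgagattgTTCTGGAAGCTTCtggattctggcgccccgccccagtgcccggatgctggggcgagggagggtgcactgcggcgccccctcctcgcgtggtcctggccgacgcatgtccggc
HSPA1A: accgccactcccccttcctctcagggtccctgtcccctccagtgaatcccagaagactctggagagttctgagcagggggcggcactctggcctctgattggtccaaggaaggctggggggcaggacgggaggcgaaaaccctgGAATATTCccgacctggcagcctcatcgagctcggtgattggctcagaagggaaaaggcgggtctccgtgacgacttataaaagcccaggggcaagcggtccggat
HSPA1B: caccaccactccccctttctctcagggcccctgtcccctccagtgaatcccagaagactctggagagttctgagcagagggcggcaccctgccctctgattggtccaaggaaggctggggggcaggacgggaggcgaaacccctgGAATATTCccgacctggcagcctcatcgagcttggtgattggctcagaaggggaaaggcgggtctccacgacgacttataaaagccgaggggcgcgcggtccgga
HSPB1: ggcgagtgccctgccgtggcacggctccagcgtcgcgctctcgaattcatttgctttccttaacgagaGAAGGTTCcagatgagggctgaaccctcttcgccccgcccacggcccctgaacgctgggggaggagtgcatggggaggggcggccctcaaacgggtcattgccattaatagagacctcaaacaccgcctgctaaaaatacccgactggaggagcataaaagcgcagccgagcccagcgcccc
HSPH1: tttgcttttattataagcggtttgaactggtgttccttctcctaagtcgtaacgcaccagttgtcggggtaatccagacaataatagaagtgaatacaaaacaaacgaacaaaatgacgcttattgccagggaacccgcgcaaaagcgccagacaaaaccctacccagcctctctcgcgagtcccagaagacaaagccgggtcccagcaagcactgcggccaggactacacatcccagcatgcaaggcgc
The HSP90AB1 stretch printed holds 2 separate 3-unit elements and the HSP90AA1 stretch printed holds 1, beside a 2-unit element. Both lie inside the gene positions given below. Each gene also has other entries, with 0 matches to either element. They lie at chr6:44245944-44246193 and chr6:44246851-44247100 for HSP90AB1 and at chr14:102139750-102139999 for HSP90AA1. HSPA1A and HSPA1B carry the same 2-unit element, and their stretches were 93.63% identical.

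Levels per exon length (RPKM) spanned a wide range among the 10 genes. Averaged over the 12 libraries, HSPA8 stood at 408 RPKM, HSP90AB1 at 385 and HSP90AA1 at 216, followed by HSPB1 at 80.9, DNAJB1 at 43.4, HSPH1 at 23.7, HSPA1B at 19.4, BAG3 at 18.1, HSPA1A at 11.3 and HSF1 at 7.32. The ranges of neighbours in this order overlapped: HSPA8 ran from 289 to 588 RPKM and HSP90AB1 from 225 to 548, and HSPH1 ran from 13.7 to 35.4 and HSPA1B from 12.7 to 30.7. The 3 genes at the top encode the constitutive HSP70 (HSPA8) and both cytosolic HSP90 proteins. Within a gene, the highest library exceeded the lowest by 1.74-fold (HSF1) to 3.13-fold (HSPB1) in CPM.

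**Figure D1:**
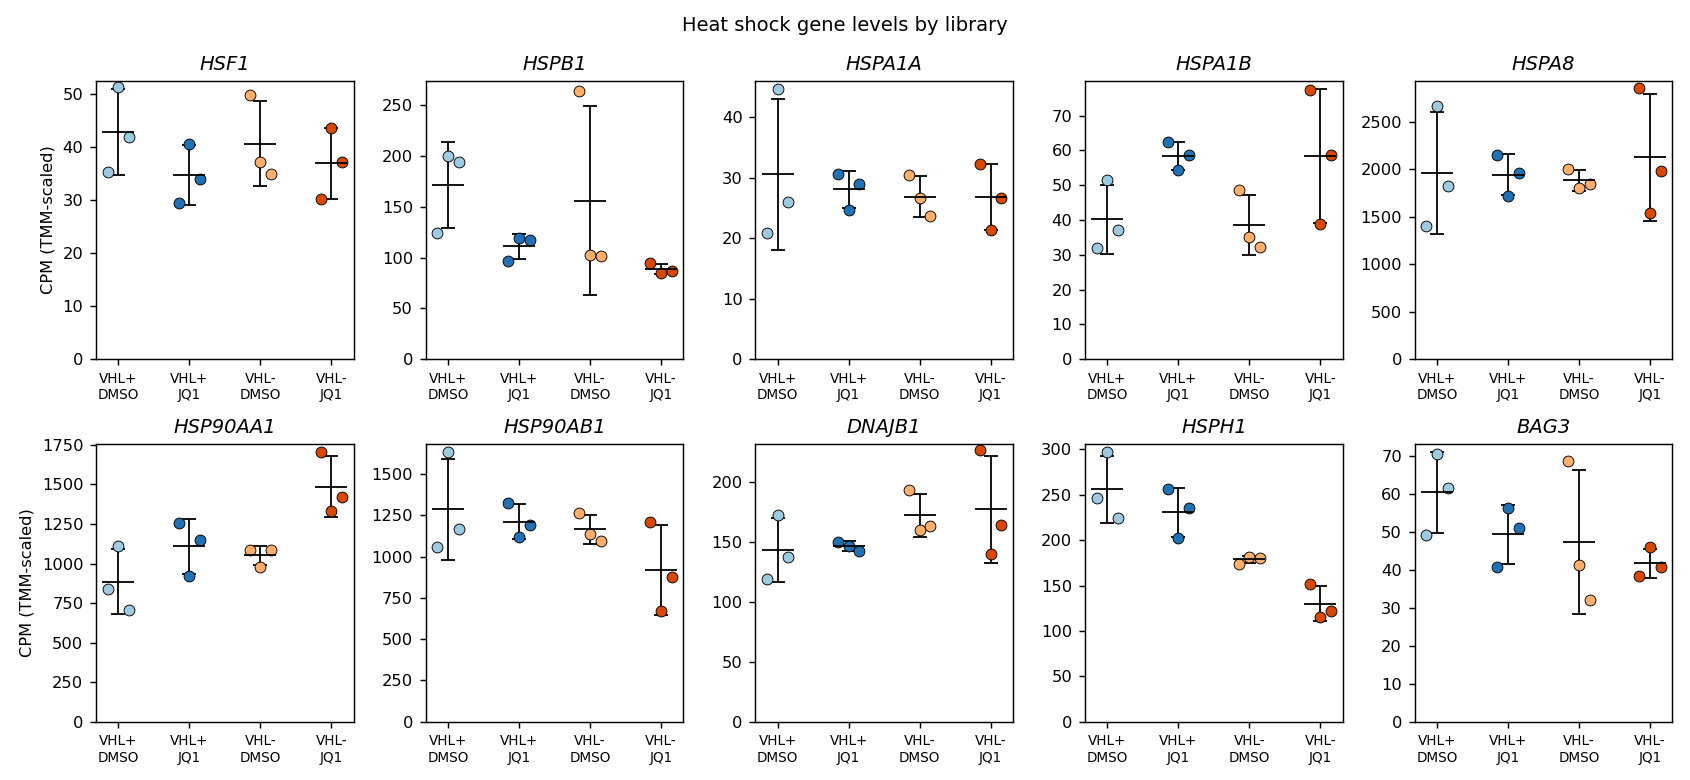
Level of each of the 10 heat shock genes in CPM (vertical axes, linear from 0, scaled per panel) in the 4 groups (horizontal axes). Points are libraries in replicate order, the horizontal bar is the mean and the error bar 1 SD (n = 3). HSPH1 is lower in all 6 VHL-negative libraries than in all 6 VHL-positive ones, and 1 HSPB1 library of the VHL-negative DMSO group stands at 264 CPM.

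What JQ1 did to these genes was compared in each line against its own DMSO libraries. In VHL-positive cells none of the 10 passed edgeR's quasi-likelihood test at a Benjamini-Hochberg adjusted p of 0.05, where 31.8% of all genes tested did. At an unadjusted p under 0.05 there were 2, HSPB1 and HSPA1B, against 41.6% of all genes. DESeq2 and limma-voom called 0 of the 10. In VHL-negative cells 3 of the 10 passed, against 32.1% of all genes: HSP90AA1 rose, and HSPB1 and HSPH1 fell. DESeq2 called 4 there, HSPA1B being the fourth, and limma-voom called 2, without HSPB1. The median log2 fold change of the 10 genes was -0.11 in VHL-positive and -0.07 in VHL-negative cells, against -0.03 and 0.03 over all genes. The median size of the change was 0.22 and 0.26 on the log2 scale for the 10 genes, against 0.42 and 0.44 for all. All genes tested include many of low count, and no match for level was made. These sizes therefore do not show that the 10 genes responded less than genes of like level.

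**Figure D2:**
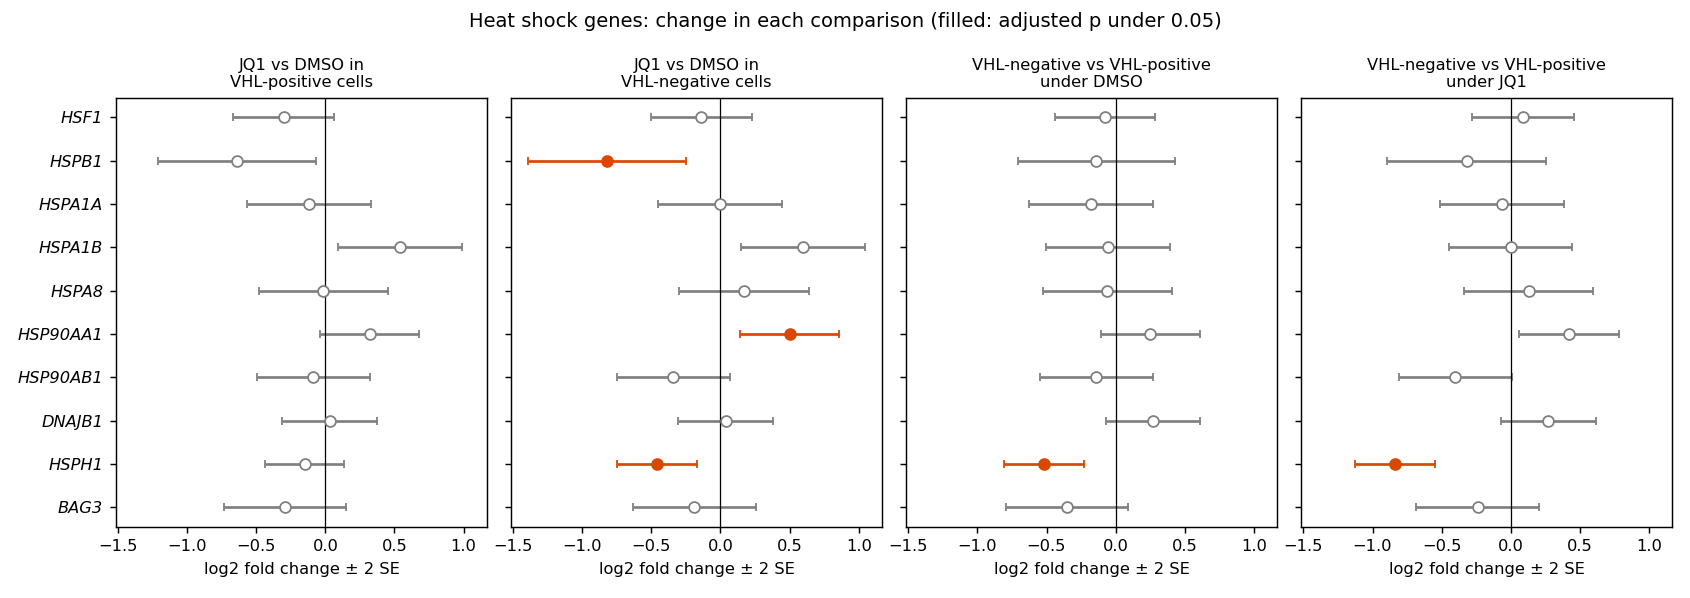
Log2 fold change of each heat shock gene (horizontal axis, bars ± 2 SE from edgeR) in the 4 comparisons (panels), with filled points for an adjusted p under 0.05. Filled points are 0, 3, 1 and 1 of 10 from left to right, and HSPH1 is filled in the last 3 panels.

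HSF1 (ENSG00000185122, GRCh38 chromosome 8, 144291591 to 144314722) encodes the regulator itself. It measured 35.4, 51.4 and 42.0 CPM in VHL-positive cells under DMSO and 29.5, 40.7 and 34.1 CPM under JQ1. VHL-negative libraries gave 49.9, 37.2 and 34.9 CPM under DMSO and 30.2, 43.6 and 37.3 CPM under JQ1. The groups overlapped in both lines. The log2 change with JQ1 was -0.30 (SE 0.183, adjusted p = 0.227) and -0.14 (SE 0.183, adjusted p = 0.594).

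HSPA8 (ENSG00000109971, chromosome 11, 123057489 to 123063230) encodes the constitutive HSP70. Its libraries ran from 1400 to 2667 CPM under DMSO and from 1718 to 2154 CPM under JQ1 in VHL-positive cells. The VHL-negative libraries ran from 1798 to 2007 CPM under DMSO and from 1538 to 2854 CPM under JQ1, and the groups overlapped in both lines. The log2 change with JQ1 was -0.01 in VHL-positive cells, with an interval of 2 SE from -0.48 to 0.45, and 0.17 in VHL-negative cells, with an interval from -0.29 to 0.64.

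HSPA1A (ENSG00000204389, chromosome 6, 31815464 to 31817946) and HSPA1B (ENSG00000204388, chromosome 6, 31827735 to 31830255) encode the stress-inducible HSP70. They are single-exon neighbours whose coding sequences of 1923 bases differ at 4 positions, and 69.3% of HSPA1A's stretches of 75 bases occur also in other transcripts, 73.2% for HSPA1B. The sources used here do not say how reads that match both were counted, so the split between both genes is uncertain. HSPA1B also shares 36.5% of its exon length with AL671762.1, a processed transcript on the same strand.

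HSPA1A measured 20.9, 44.7 and 26.0 CPM in VHL-positive cells under DMSO and 30.6, 24.6 and 29 CPM under JQ1. The VHL-negative libraries gave 30.5, 26.6 and 23.7 CPM under DMSO and 32.3, 21.4 and 26.7 CPM under JQ1. The groups overlapped in both lines, with log2 changes of -0.12 (SE 0.225, adjusted p = 0.723) and -0.0046 (SE 0.225, adjusted p = 0.991).

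HSPA1B measured 32.0, 51.4 and 37.2 CPM in VHL-positive cells under DMSO and 62.5, 54.4 and 58.7 CPM under JQ1, where the lowest treated library exceeded the highest control. VHL-negative cells gave 48.5, 35.1 and 32.3 CPM under DMSO and 77.4, 38.8 and 58.8 CPM under JQ1, and the groups overlapped. The log2 changes of HSPA1B were 0.54 (SE 0.224, adjusted p = 0.0771) and 0.60 (SE 0.224, adjusted p = 0.0515), and both missed the threshold in edgeR. In VHL-positive cells it passed without VHL-positive DMSO replicate 2 (log2 0.77, adjusted p = 0.0247), VHL-negative JQ1 replicate 1 (0.56, adjusted p = 0.0387) or VHL-negative JQ1 replicate 2 (0.56, adjusted p = 0.0299). In VHL-negative cells it passed without VHL-positive DMSO replicate 1 (0.59, adjusted p = 0.0464) or 2 (0.60, adjusted p = 0.0373), VHL-negative DMSO replicate 1 (0.80, adjusted p = 0.0262) or VHL-negative JQ1 replicate 2 (0.83, adjusted p = 0.00697). Of the 26 settings tried, 5 called HSPA1B in VHL-positive cells and 11 in VHL-negative cells. These included no filter, at 0.53 (adjusted p = 0.0138) and 0.55 (adjusted p = 0.011). With the counts of both genes summed and fitted as 1 gene, the log2 changes were 0.29 (adjusted p = 0.344) and 0.38 (adjusted p = 0.206).

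The HSPA1B count divided by the HSPA1A count of the same library was chosen after the values were seen and is given as a description. This ratio was 1.53, 1.15 and 1.43 in VHL-positive cells under DMSO and 2.04, 2.21 and 2.02 under JQ1. It was 1.59, 1.32 and 1.36 in VHL-negative cells under DMSO and 2.40, 1.82 and 2.20 under JQ1. Every JQ1 library exceeded every DMSO library of either line, by 1.52-fold on average. An exact two-sided permutation test within the lines gave p = 0.005, the smallest that its 400 relabellings allow (0.1 in either line alone, the smallest for 3 against 3), and adjusted p = 0.005 over the 2 ratios computed. The test used the values that led to the choice and is no independent support, and the adjustment does not allow for that choice.

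HSP90AA1 (ENSG00000080824, chromosome 14, 102080738 to 102139699) encodes HSP90 alpha, the more stress-inducible of the cytosolic HSP90 proteins. It measured 1086, 979 and 1088 CPM in VHL-negative cells under DMSO and 1706, 1335 and 1419 CPM under JQ1, without overlap. It rose 1.41-fold there (log2 0.50, SE 0.18, adjusted p = 0.0434). VHL-positive cells gave 840, 1113 and 705 CPM under DMSO and 1258, 920 and 1149 CPM under JQ1, with overlap, and a log2 change of 0.32 (SE 0.179, adjusted p = 0.187).

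The HSP90AA1 call lay close to the threshold and held in 4 of the 12 edgeR fits that left out 1 library. Without VHL-positive JQ1 replicate 1, 2 or 3 the log2 change stayed at 0.50 with an adjusted p of 0.0576, 0.0525 and 0.0695. Without VHL-negative DMSO replicate 1, 2 or 3 it was 0.52 (adjusted p = 0.0803), 0.43 (adjusted p = 0.127) and 0.49 (adjusted p = 0.0855). Without VHL-negative JQ1 replicate 1 or 3 it was 0.38 (adjusted p = 0.123) and 0.54 (adjusted p = 0.087). Testing all genes, without the filter, also lost the call (log2 0.44, adjusted p = 0.0797). In VHL-positive cells it passed without VHL-positive DMSO replicate 2 (log2 0.54, adjusted p = 0.0363).

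HSP90AB1 (ENSG00000096384, chromosome 6, 44246166 to 44253888) encodes HSP90 beta, the constitutive form. Its VHL-negative libraries gave 1263, 1139 and 1096 CPM under DMSO and 1211, 671 and 876 CPM under JQ1. Its VHL-positive libraries gave 1057, 1634 and 1170 CPM under DMSO and 1326, 1116 and 1191 CPM under JQ1. The log2 changes were -0.34 in VHL-negative cells (SE 0.204, adjusted p = 0.215) and -0.09 in VHL-positive cells (SE 0.204, adjusted p = 0.784). Groups overlapped in both lines. Without VHL-negative JQ1 replicate 1 HSP90AB1 passed in VHL-negative cells (log2 -0.60, adjusted p = 0.0238).

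The ratio of HSP90AA1 to HSP90AB1 counts within a library, also chosen after the values were seen, was 0.795, 0.681 and 0.602 in VHL-positive cells under DMSO and 0.948, 0.825 and 0.965 under JQ1. The VHL-negative libraries had ratios of 0.860, 0.860 and 0.993 under DMSO and 1.41, 1.99 and 1.62 under JQ1. In each line all JQ1 libraries lay above all DMSO libraries, and the same exact permutation test gave p = 0.005, with the same limit. The mean log2 change of the ratio was 0.40 in VHL-positive and 0.88 in VHL-negative cells, and neither gene's own JQ1 effect differed between the lines by the test given below for all 10 genes. Leaving out any 1 library, the third JQ1 library of both lines or the first DMSO library of both lines kept the mean over both lines between 0.57 and 0.70 for this ratio, and between 0.54 and 0.69 for HSPA1B to HSPA1A.

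**Figure D3:**
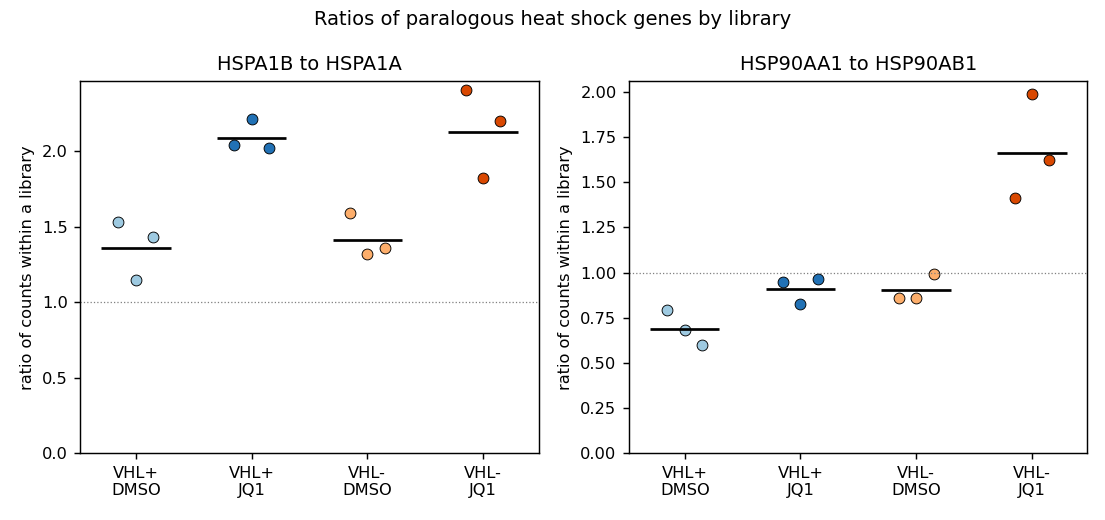
Ratio of raw counts within each library (vertical axes, linear from 0) for HSPA1B to HSPA1A (left) and HSP90AA1 to HSP90AB1 (right) in the 4 groups. Points are libraries, black lines are means on the log2 scale, and the dotted line marks equal counts. In each line the JQ1 points lie above the DMSO points, and the HSP90 ratio of raw counts, which is not adjusted for length, is above 1 in the 3 VHL-negative JQ1 libraries, at 1.41 to 1.99.

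HSPB1 (ENSG00000106211, chromosome 7, 76302544 to 76304295) encodes HSP27, a small heat shock protein that holds unfolded proteins without using ATP. Its VHL-negative libraries gave 264, 103 and 102 CPM under DMSO and 94.4, 84.5 and 86.9 CPM under JQ1. The groups did not overlap, and DMSO replicate 1 stood apart from the other controls. HSPB1 fell 1.76-fold (log2 -0.82, SE 0.287, adjusted p = 0.0385). Without that library the log2 change was -0.21 (adjusted p = 0.428), so the size of the fall rests on it. That library also had the highest share of mitochondrial and structural RNA, and with those genes removed the log2 change of HSPB1 was -0.82 (adjusted p = 0.0345). Over tested genes, mitochondrial and structural RNA genes included, that library differed from replicates 2 and 3 by a chi-square per gene of 125 and 183. Between replicates 2 and 3 the value was 21.5. It was 92.2 between VHL-positive DMSO replicates 1 and 2, and 58.8 between VHL-negative JQ1 replicates 1 and 2. Whether the state of VHL-negative DMSO replicate 1 bears on its HSPB1 level was not tested. The call was also lost without VHL-negative JQ1 replicate 2 (log2 -0.77, adjusted p = 0.1) or 3 (log2 -0.80, adjusted p = 0.105). It was lost as well with only the groups compared (log2 -0.82, adjusted p = 0.0747), protein-coding genes only (log2 -0.72, adjusted p = 0.0583) or limma-voom (log2 -0.67, adjusted p = 0.0826).

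In VHL-positive cells HSPB1 measured 124, 200 and 194 CPM under DMSO and 96.6, 119 and 117 CPM under JQ1. All treated libraries lay below all controls, and the change did not pass the threshold (log2 -0.64, SE 0.285, adjusted p = 0.102). It passed without VHL-positive DMSO replicate 1 (log2 -0.83, adjusted p = 0.0462). It passed without VHL-negative DMSO replicate 1 (log2 -0.62, adjusted p = 0.00896), the library at 264 CPM, which enters this fit through the shared estimate of spread. Total counts alone (log2 -0.74, adjusted p = 0.02), no filter (log2 -0.65, adjusted p = 0.00153) and only the groups compared (log2 -0.66, adjusted p = 0.017) gave the call too. So did leaving out the first DMSO libraries (log2 -0.83, adjusted p = 0.000273), for 6 of the 26 settings tried.

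DNAJB1 (ENSG00000132002, chromosome 19, 14514770 to 14529770) encodes the J protein HSP40, which starts the HSP70 cycle. It measured 119, 172 and 137 CPM in VHL-positive cells under DMSO and 150, 146 and 142 CPM under JQ1. DNAJB1 in VHL-negative cells stood at 193, 160 and 163 CPM under DMSO and 226, 140 and 164 CPM under JQ1. The groups overlapped, with log2 changes of 0.03 (SE 0.172) and 0.04 (SE 0.171), and both intervals of 2 SE ended at 0.38 on the upper side.

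HSPH1 (ENSG00000120694, chromosome 13, 31134974 to 31162388) encodes HSP110, an exchange factor that releases ADP from HSP70. None of its stretches of 75 bases occurred in another gene's transcripts. It measured 247, 297 and 224 CPM in VHL-positive cells under DMSO, 256, 203 and 235 CPM in VHL-positive cells under JQ1, 174, 181 and 180 CPM in VHL-negative cells under DMSO and 152, 115 and 122 CPM in VHL-negative cells under JQ1. The groups of VHL-negative cells did not overlap, and those of VHL-positive cells did. With JQ1 in VHL-negative cells HSPH1 fell 1.38-fold (log2 -0.46, SE 0.145, adjusted p = 0.0226). The call was lost without VHL-negative JQ1 replicate 2 (log2 -0.37, adjusted p = 0.0996) or 3 (log2 -0.41, adjusted p = 0.111). In VHL-positive cells the log2 change was -0.15 (SE 0.144, adjusted p = 0.475).

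BAG3 (ENSG00000151929, chromosome 10, 119651370 to 119677819) encodes an exchange factor that hands HSP70 clients to autophagy. It measured 49.3, 70.7 and 61.6 CPM in VHL-positive cells under DMSO and 40.8, 56.3 and 51.2 CPM under JQ1. BAG3 in VHL-negative cells stood at 68.8, 41.4 and 32.2 CPM under DMSO and 38.5, 46.1 and 40.7 CPM under JQ1. The groups overlapped in both lines, and neither change passed (log2 -0.29, adjusted p = 0.341, and log2 -0.19, adjusted p = 0.555).

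In the authors' deposited table for VHL-negative cells, HSPB1 (log2 -0.86, adjusted p = 0.0208), HSP90AA1 (log2 0.47, adjusted p = 0.041) and HSPH1 (log2 -0.49, adjusted p = 0.00756) had an adjusted p under 0.05, and HSPA1B had 0.0758. In the authors' deposited table for VHL-positive cells none of the 10 did, with HSPA1B at 0.0939 and HSPB1 at 0.112.

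Whether the lines differed in these genes was compared under each treatment, with the same libraries as above. Under DMSO 1 of the 10 genes passed, against 30.7% of all genes, and under JQ1 again 1 of 10, against 40.9%. Both were HSPH1, which was lower in VHL-negative cells. DESeq2 and limma-voom each called 1 of 10 in both comparisons. The median log2 difference of the 10 genes was -0.11 under DMSO and -0.03 under JQ1, against 0.0018 and 0.03 over all genes.

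HSPH1 was 1.43-fold lower in VHL-negative than in VHL-positive cells under DMSO (log2 -0.52, SE 0.144, adjusted p = 0.0115) and 1.79-fold lower under JQ1 (log2 -0.84, SE 0.145, adjusted p = 0.000298). All VHL-negative libraries lay below all VHL-positive ones under each treatment. Without VHL-positive DMSO replicate 2 the difference under DMSO was -0.39 (adjusted p = 0.0626). The difference under JQ1 passed in all 26 settings tried.

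HSP90AA1 under JQ1 was above all VHL-positive libraries in all VHL-negative ones, and did not pass (log2 0.42, SE 0.18, adjusted p = 0.0704). It passed without VHL-positive DMSO replicate 2 (log2 0.41, adjusted p = 0.0472). HSP90AB1 under JQ1 differed by -0.40 (SE 0.204, adjusted p = 0.132) and passed without VHL-negative JQ1 replicate 1 (log2 -0.66, adjusted p = 0.0115). HSPB1 and BAG3 under DMSO differed by -0.14 (adjusted p = 0.751) and -0.35 (adjusted p = 0.254). Both passed without VHL-negative DMSO replicate 1, HSPB1 at -0.74 (adjusted p = 0.00743) and BAG3 at -0.71 (adjusted p = 0.00886).

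The JQ1 effect in VHL-negative cells minus that in VHL-positive cells was tested directly. None of the 10 genes passed in edgeR, DESeq2 or limma-voom. In edgeR 1.21% of all genes passed, 0.497% higher and 0.71% lower. At an unadjusted p under 0.05 in edgeR there were 0 of the 10, against 22.5% of all genes. The differences ran from -0.32 (HSPH1, SE 0.204, adjusted p = 0.364) to 0.19 (HSPA8, SE 0.331, adjusted p = 0.758). The difference was 0.18 for HSP90AA1, with an interval of 2 SE from -0.33 to 0.68, and -0.18 for HSPB1, with an interval from -0.99 to 0.62. The JQ1 effects of HSP90AA1 (0.50) and HSPB1 (-0.82) in VHL-negative cells lie inside these intervals. The calls in 1 line and not in the other are therefore not shown to differ.

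Wider chaperone lists, 82 genes of which 76 were tested, were counted in the same fits. With JQ1, 12 rose and 10 fell in VHL-positive cells (median log2 0.03) and 7 rose and 20 fell in VHL-negative cells (median -0.24), against 15.3% higher and 16.5% lower over all genes in the first comparison and 14.6% and 17.5% in the second. Under JQ1, 2 were higher and 27 lower in VHL-negative than in VHL-positive cells (median -0.31), against 19.7% and 21.2% of all genes. Under DMSO these numbers were 7 and 13 (median -0.10), against 14.8% and 15.9%. For the difference between JQ1 effects none of the 76 passed in edgeR, where 15 had an unadjusted p under 0.05, against 22.5% of all genes. limma-voom called 0 there and DESeq2 5, HSBP1, HSPB8, CRYAB, DNAJB2 and PFDN4. edgeR called 6 of 81 with no filter on low counts, 1 (CRYAB) with total counts alone or without VHL-negative DMSO replicate 3, and 16 of 77 without VHL-negative JQ1 replicate 1. The difference was negative for every one of these calls. Over all genes, limma-voom called 198 of 20714 (125 lower) and DESeq2 1188 (724 lower). With no filter edgeR called 1336 of 48156 (664 lower), and with total counts alone 199 of 20714 (87 lower). It called 124 of 21847 (88 lower) without VHL-negative DMSO replicate 3 and 3510 of 21706 (2209 lower) without VHL-negative JQ1 replicate 1.

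The counts within lines moved with single libraries. The 22 genes called with JQ1 in VHL-positive cells became 12 without VHL-positive JQ1 replicate 1, and the 27 in VHL-negative cells became 41 without VHL-negative JQ1 replicate 1 and 15 without replicate 3. The 20 called between the lines under DMSO became 13 without VHL-positive DMSO replicate 1 or 2. Calls over all genes also moved in these fits. With JQ1 they were 4710 in place of 6589 in VHL-positive cells, and 8106 and 4672 in place of 6649 in VHL-negative cells. Between the lines under DMSO they were 5441 and 6431 in place of 6357.

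Of 5 tested genes of the HSF family and its regulators, 1 rose and 2 fell with JQ1 in VHL-positive cells, and 1 rose and 3 fell in VHL-negative cells. HSF4, a heat shock factor best known from the eye lens, rose in both lines, from 8.16 ± 1.32 to 14.4 ± 2.31 CPM (log2 0.82, adjusted p = 0.00178) and from 8.47 ± 0.72 to 15.6 ± 2.46 CPM (log2 0.87, adjusted p = 0.00102). HSBP1L1, a relative of the HSF1-binding protein HSBP1, fell by 0.91 on the log2 scale in both lines (adjusted p = 0.00111 and 0.00114). HSBP1, which binds HSF1 trimers, was lower in VHL-negative than in VHL-positive cells under JQ1, at 95.4 ± 31.6 against 179 ± 13.4 CPM (log2 -0.90, adjusted p = 0.00117).

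Of 9 other HSP70 and HSP110 genes, 3 rose and 0 fell in VHL-positive cells, and 2 rose and 1 fell in VHL-negative cells. HSPA2, an HSP70 of testis, rose in both lines, from 2.24 ± 0.327 to 4.23 ± 0.431 CPM (log2 0.93, adjusted p = 0.00208) and from 1.71 ± 0.213 to 5.30 ± 0.54 CPM (log2 1.62, adjusted p = 1.86e-05). HSPA4, an HSP110 relative of HSPH1, was lower in VHL-negative cells under JQ1, at 233 ± 42 against 385 ± 43.9 CPM (log2 -0.73, adjusted p = 0.00117). HSPA6, a strictly inducible HSP70, rose at a low level in VHL-positive cells, to 3.39 ± 1.15 from 1.55 ± 0.733 CPM (log2 1.14, adjusted p = 0.0251). That call was lost without VHL-positive DMSO replicate 3 (log2 0.79, adjusted p = 0.102), VHL-positive JQ1 replicate 1 (log2 0.92, adjusted p = 0.122) or 3 (log2 1.09, adjusted p = 0.0704). In VHL-negative cells HSPA6 measured 1.04 ± 0.229 CPM with JQ1 and 1.24 ± 0.37 CPM without it. The difference between its JQ1 effects was -1.38 (adjusted p = 0.157), and it passed in 1 of 25 settings.

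Of 3 tested other small heat shock genes, HSPB8, the partner of BAG3, fell in both lines, from 49.5 ± 4.8 to 32.5 ± 3.57 CPM (log2 -0.61, adjusted p = 0.00643) and from 38.2 ± 7.54 to 15.2 ± 1.81 CPM (log2 -1.33, adjusted p = 1.29e-05). Without VHL-positive JQ1 replicate 1 the HSPB8 change in VHL-positive cells was -0.52 (adjusted p = 0.0508). CRYAB, which encodes alpha-B crystallin, fell 6.3-fold with JQ1 in VHL-negative cells, to 2.65 ± 0.342 from 16.9 ± 9.85 CPM (log2 -2.66, adjusted p = 5.07e-05). In VHL-positive cells CRYAB measured 86.4 ± 10.6 and 51.9 ± 21.2 CPM (log2 -0.74, adjusted p = 0.0803). That change passed without VHL-positive JQ1 replicate 2 (log2 -1.10, adjusted p = 0.0194), VHL-negative DMSO replicate 1 (log2 -0.72, adjusted p = 0.0203) or VHL-negative DMSO replicate 3 (log2 -0.76, adjusted p = 0.0395). Between the lines CRYAB was 5.13-fold lower in VHL-negative cells under DMSO (adjusted p = 3.46e-05) and 19.4-fold lower under JQ1 (adjusted p = 2.35e-07). The difference between its JQ1 effects was -1.92 (adjusted p = 0.0587), and it passed without VHL-negative DMSO replicate 3 (log2 -2.21, adjusted p = 0.0266) or VHL-negative JQ1 replicate 1 (log2 -2.07, adjusted p = 0.0201). It also passed in DESeq2 (log2 -1.94, adjusted p = 0.0303), with total counts alone (log2 -1.77, adjusted p = 0.0434) and, when low counts were not filtered out, at log2 -1.97 (adjusted p = 3.47e-11).

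Of 9 other cytosolic J proteins, 3 rose and 2 fell in VHL-positive cells, and 2 rose and 2 fell in VHL-negative cells. DNAJB4 rose in both lines (log2 0.68, adjusted p = 0.0004, and log2 0.64, adjusted p = 0.000626), and DNAJC7, which binds HSP70 and HSP90, fell in both (log2 -0.50, adjusted p = 0.00305, and log2 -0.58, adjusted p = 0.000939). Of 11 HSP90 cochaperones, 4 rose and 1 fell in VHL-positive cells, and 2 rose and 3 fell in VHL-negative cells. FKBP5, a cochaperone of steroid receptors, rose in both, from 70.2 ± 8.74 to 102 ± 6.18 CPM (log2 0.53, adjusted p = 0.00536) and from 68 ± 2.43 to 109 ± 14.5 CPM (log2 0.69, adjusted p = 0.000813). UNC45A, a myosin chaperone, rose in VHL-positive cells, at 170 ± 15.2 CPM with JQ1 against 88.5 ± 9.62 CPM without it (log2 0.94, adjusted p = 0.000127). In VHL-negative cells UNC45A measured 103 ± 14.3 CPM with JQ1 and 80 ± 9.43 CPM without it. The difference between its JQ1 effects was -0.58 (adjusted p = 0.119), and it passed without VHL-negative JQ1 replicate 1 (log2 -0.71, adjusted p = 0.0243).

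Of 7 other HSP70 exchange factors and partners, 1 fell in each line and none rose in edgeR. This was HSPBP1, an exchange factor, at log2 -0.46 (adjusted p = 0.015) and -0.70 (adjusted p = 0.000874). In VHL-positive cells the HSPBP1 call was lost without VHL-positive DMSO replicate 3 (log2 -0.43, adjusted p = 0.0596), VHL-positive JQ1 replicate 1 (log2 -0.45, adjusted p = 0.0628) or 2 (log2 -0.41, adjusted p = 0.0853).

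Of 14 genes of the chaperonin, which folds actin and tubulin, and of prefoldin, which delivers them to it, 0 changed in VHL-positive cells and 6 fell in VHL-negative cells by edgeR: CCT3, CCT4, CCT6A, PFDN1, PFDN2 and PFDN4. DESeq2 and limma-voom also called 6. The count was 1 (PFDN4) without VHL-negative JQ1 replicate 2 or 3, 12 without VHL-negative JQ1 replicate 1, 3 without VHL-positive JQ1 replicate 3 or VHL-negative DMSO replicate 1, and 4 to 6 in the other fits that left out 1 library. Calls over all genes were 5176 and 4672 without VHL-negative JQ1 replicate 2 and 3, and 8106 without VHL-negative JQ1 replicate 1. They were 6082 without VHL-positive JQ1 replicate 3 and 5184 without VHL-negative DMSO replicate 1, against 6649 with all libraries. PFDN4 fell from 37.2 ± 4.82 to 21.9 ± 5.18 CPM (log2 -0.76, adjusted p = 0.00232). The median log2 change of these 14 genes was -0.0088 and -0.39, and none of the 14 passed edgeR's test of the difference between JQ1 effects. PFDN4 passed that test in DESeq2 (log2 -0.79, adjusted p = 0.0381) and when low counts were not filtered out (log2 -0.83, adjusted p = 0.0293). Without VHL-negative JQ1 replicate 1, 5 of the 14 passed it, TCP1, CCT3, CCT8, PFDN4 and PFDN6, against 3510 of all 21706 genes. Under JQ1, CCT3 was 2.06-fold lower (adjusted p = 0.000321) and CCT5 1.64-fold lower (adjusted p = 0.00118) in VHL-negative than in VHL-positive cells. Without drug, CCT5 was also lower there, by 1.48-fold (adjusted p = 0.00717), and CCT3 by 1.39-fold without passing (adjusted p = 0.0563).

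Chaperones of other compartments were counted for comparison. Of 7 mitochondrial chaperones, 2 fell in VHL-positive cells, HSPA9 (2-fold, adjusted p = 0.00153) and HSPE1 (log2 -0.84, adjusted p = 0.00338). In VHL-negative cells HSPA9 changed by -0.46 (adjusted p = 0.094) and HSPE1 by -0.45 (adjusted p = 0.0806). HSPA9 passed there without VHL-negative DMSO replicate 2 (log2 -0.63, adjusted p = 0.0381), and HSPE1 without VHL-positive DMSO replicate 1 (log2 -0.47, adjusted p = 0.0317) or 3 (log2 -0.46, adjusted p = 0.0369). Of 11 endoplasmic reticulum chaperones, 1 rose and 1 fell with JQ1 in VHL-positive cells, and 0 rose and 2 fell in VHL-negative cells. Under JQ1, 7 were lower and 1 higher in VHL-negative than in VHL-positive cells, against 21.2% and 19.7% of all genes. Those lower included CANX, or calnexin (log2 -1.10, adjusted p = 5.68e-05), and HYOU1 (log2 -1.11, adjusted p = 6.07e-05). Under DMSO 4 were lower and 0 higher, against 15.9% and 14.8%. For the difference between JQ1 effects 0 of the 11 passed in edgeR. Without VHL-negative JQ1 replicate 1, HYOU1, CALR and CANX passed it (adjusted p = 0.0144, 0.0133 and 0.0225), against 3510 of all 21706 genes.

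**Figure D4:**
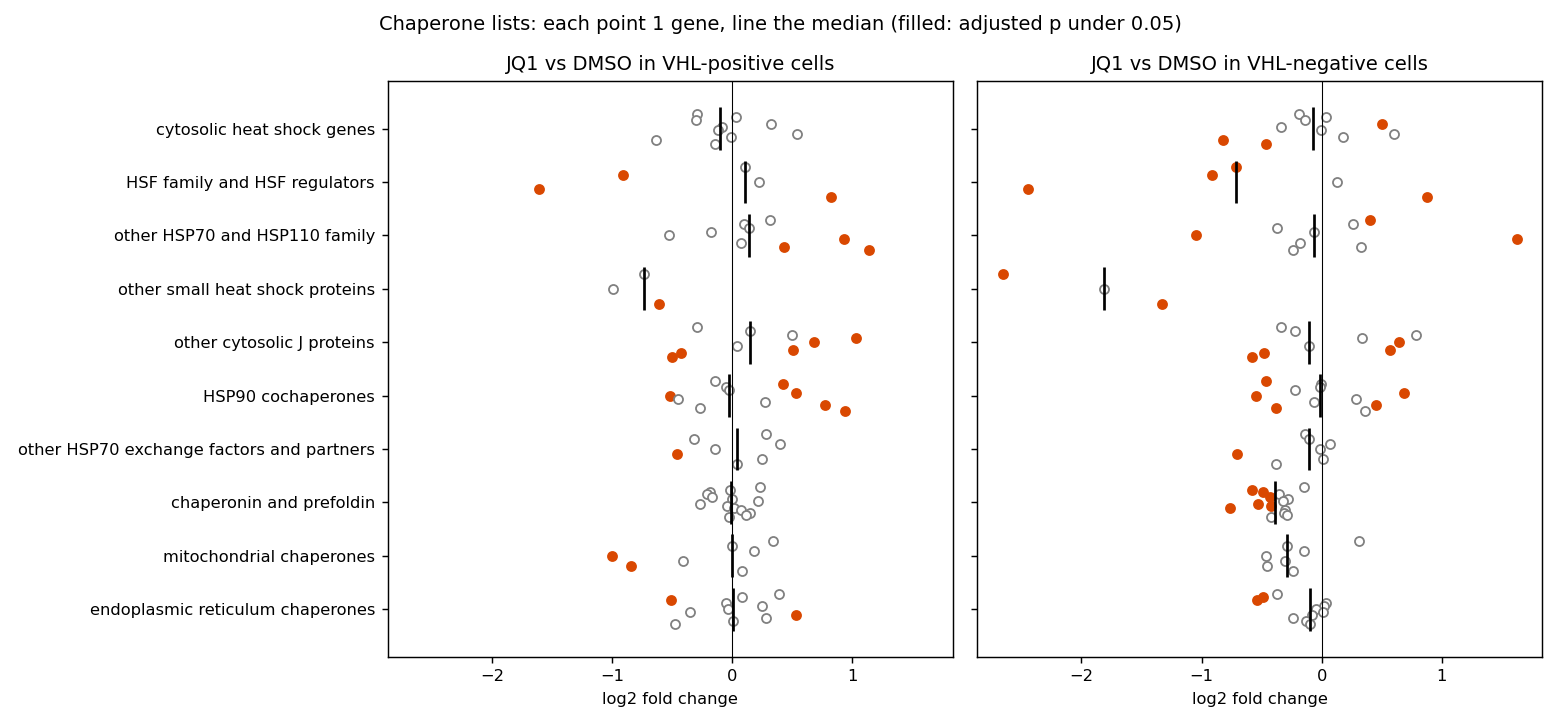
Log2 fold change with JQ1 (horizontal axis) of each tested gene of the 10 heat shock genes and of 9 other chaperone lists (rows) in VHL-positive (left) and VHL-negative cells (right). Each point is 1 gene, filled at an adjusted p under 0.05, and black lines are medians. The chaperonin and prefoldin row has no filled point on the left and 6 on the right, all below 0.

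The genes most like the 3 called heat shock genes were found by the root mean square difference between 2 genes' log2 CPM over the 12 libraries, after each gene's mean was taken off, among 8045 genes. For HSPH1 these were CCT5 (0.0734), LPGAT1 (0.0992) and MRPL42 (0.106). For HSP90AA1 they were PITHD1 (0.121), HSPA4L (0.131) and ABCF1 (0.138), and for HSPB1 POLD2 (0.151), SHKBP1 (0.165) and NUTF2 (0.176). The closest pair among the 10 heat shock genes was HSPA1A and HSPA8, at 0.134.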

How the data were processed

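The labels' protocols state DNase treatment, ribosomal RNA depletion and NextSeq sequencing. The authors deposited raw counts per Ensembl gene for 60663 genes, of which 60462 had a symbol. The submitters' processing notes list GRCh38, DESeq2 1.30.1, featureCounts, STAR 2.7.8 and Subread 2.0.3, without roles. The strand setting and the handling of multiply mapped reads were not given in the sources. For the authors' deposited comparison tables, the change and the error per gene are log2 values. The deposited test statistic is a score that divides each change by its error. The deposited p-value and adjusted p-value are the authors' own. The deposited mean is of another (other) kind, a mean of counts divided by size factors.

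Counts were fitted in R 4.3.3 with edgeR 4.0.16 (quasi-likelihood, TMM, filter on low counts by group, 1 mean per group over 12 libraries). The threshold was 0.05 on p-values adjusted by Benjamini and Hochberg's method over 20714 genes. Standard errors are the log2 fold change over the root of the test's F, and a prior count of 2 went into log2 CPM. The code was tested on simulated data. RPKM used merged exon lengths of GENCODE, and positions are from the same annotation. Promoter stretches are RefSeq's.

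The 10 genes and the lists were chosen with earlier results of these data known. Named genes were the 10, up to 3 genes per list and comparison with the smallest p, VHL, MYC, and the 3 genes most alike for called members. Not every gene named by this rule is described. The alternatives tried were total counts alone, median-of-ratios size factors, no filter, a filter of 1 CPM in 3 libraries, DESeq2 1.42.0, limma-voom (limma 3.58.1), only the groups compared, a replicate block, mitochondrial and structural RNA genes removed, protein-coding genes only, summed HSPA1A and HSPA1B counts, added pseudogene counts, an adjusted p under 0.01, and libraries left out. Those of the count ratios were chosen after seeing the data.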

Additional observations from a re-analysis of the deposited data

Results flagged for a closer look

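The JQ1 effect on VHL RNA differed between the lines by the test of the difference itself (log2 -1.29, SE 0.173, adjusted p = 0.00161 in edgeR), with all 3 treated libraries above all 3 controls in each line. Leaving out JQ1 replicate 3 in both lines, it was -1.22 (adjusted p = 0.0694). None of the 10 heat shock genes passed this test in edgeR, DESeq2 or limma-voom.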

How the results depend on the processing

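Of the alternative values for the 10 heat shock genes, 1085 kept direction and side of the threshold, 38 newly passed, 25 no longer passed and 77 changed sign. Where calls or signs moved below, the cause was not tested.

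Whether replicate numbers pair the libraries is not settled: correlations of same-numbered deviations from group means ran from -0.26 to 0.335. Between VHL-negative DMSO and JQ1 libraries they were 0.274, 0.335 and 0.009, against -0.381 to 0.106 for unlike numbers. Between the DMSO libraries of both lines they ran from -0.26 to -0.028. With a replicate block, 1 of the 10 genes passed with JQ1 in VHL-negative cells in place of 3, with HSP90AA1 at 0.49 (adjusted p = 0.0567 in edgeR) and HSPB1 at -0.78 (adjusted p = 0.0657), and HSPA1A there was 0.001.

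Genes of the 10 called with JQ1 in VHL-positive cells (0) became 1 with total counts alone or without the first DMSO libraries, and 2 with no filter or only the groups compared (0 to 2 leaving out 1 library). In VHL-negative cells (3) they became 0 without the third JQ1 libraries or at an adjusted p under 0.01 (0 to 4). Between the lines under DMSO (1) they became 3 without the first DMSO libraries and 0 at 0.01 (0 to 3). Under JQ1 (1) they became 3 with total counts alone, only the groups compared or protein-coding genes only, and 2 with the filter of 1 CPM or without the first DMSO libraries (1 to 2). All genes called without the third JQ1 libraries were 4160, 3957 and 4814 for JQ1 in VHL-positive cells, JQ1 in VHL-negative cells and the lines under JQ1, against 6589, 6649 and 8479. For the difference between JQ1 effects they were 25, against 250, 1336 with no filter, 1188 with DESeq2 and 43 to 3510 leaving out 1 library. Total counts alone moved the median of all genes from -0.03 to -0.14 with JQ1 in VHL-positive cells, where 34.1% of calls were higher in place of 48.1%. Under JQ1 they moved it from 0.03 to 0.19 (62.1% in place of 48.1%), and for the difference from 0.01 to 0.11 (56.3% in place of 41.2%). With JQ1 in VHL-negative cells 40.2% of calls were then higher in place of 45.6%, and between the lines under DMSO 54.9% in place of 48.1%.

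Signs changed for these log2 values. With JQ1 in VHL-positive cells, HSPA1A was 0.29 with HSPA1B summed, HSPA8 0.03 in limma-voom, and DNAJB1 -0.072 with total counts alone, -0.0079 with protein-coding genes only and -0.083 without the first DMSO libraries. In VHL-negative cells HSF1 was 0.021 and BAG3 0.17 without the first DMSO libraries, and DNAJB1 -0.017 with no filter. HSPA1A there was 0.038 with the filter of 1 CPM, 0.075 with protein-coding genes only, 0.0047 without the third JQ1 libraries, 0.082 without the first DMSO libraries and 0.38 with HSPA1B summed. Under DMSO between the lines HSPA8 was 0.011 with total counts alone and PTGES3 0.02 without the first DMSO libraries. Under JQ1 between the lines, total counts alone gave 0.084 (HSPA1A), 0.14 (HSPA1B) and 0.14 (MYC), protein-coding genes only 0.05, 0.10 and 0.10, and the filter of 1 CPM 0.043 (HSPA1B) and 0.037 (MYC). HSPA1B was 0.0047 with only the groups compared and 0.0039 with mitochondrial and structural RNA genes removed. For the difference, HSPB1 was 0.61 without the first DMSO libraries. DNAJB1 was -0.005 with median-of-ratios size factors, -0.044 with no filter, -0.0051 in DESeq2 and -0.036 in limma-voom. HSF2 was 0.037 with protein-coding genes only, and DNAJC7 0.0091 with total counts alone and 0.056 with protein-coding genes only.

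Leaving out 1 library also changed signs. With JQ1 in VHL-positive cells HSPA1A ran from -0.33 to 0.27, HSPA8 from -0.21 to 0.29, HSP90AB1 from -0.21 to 0.14, DNAJB1 from -0.082 to 0.21 and MYC from -0.27 to 0.16. In VHL-negative cells HSF1 ran from -0.26 to 0.03, HSPA1A from -0.17 to 0.14, HSPA8 from -0.10 to 0.37, DNAJB1 from -0.19 to 0.19, BAG3 from -0.43 to 0.18 and BAG1 from -0.35 to 0.045. Under DMSO between the lines HSF1 ran from -0.25 to 0.081, HSPB1 from -0.74 to 0.086, HSPA1A from -0.39 to 0.21, HSPA1B from -0.25 to 0.17, HSPA8 from -0.25 to 0.23 and HSP90AB1 from -0.27 to 0.075. Under JQ1 HSF1 ran from -0.041 to 0.21, HSPA1A from -0.24 to 0.077, HSPA1B from -0.28 to 0.23, HSPA8 from -0.16 to 0.32 and MYC from -0.17 to 0.12. For the difference HSF1 ran from -0.0096 to 0.32, HSPB1 from -0.42 to 0.41, HSPA1A from -0.28 to 0.32, HSPA1B from -0.22 to 0.28, HSPA8 from -0.12 to 0.38, HSP90AA1 from -0.041 to 0.31, DNAJB1 from -0.24 to 0.15 and BAG3 from -0.11 to 0.46.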
